A study of Homo sapiens with 6 samples.

Results

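RNA of SKM-1 cells given VEM alone was compared with RNA of untreated SKM-1 cells, in 1 VEM library and 2 untreated libraries of the 6 in the series. SKM-1 is a human acute myeloid leukaemia line that was established from a patient whose disease had progressed from a myelodysplastic syndrome. VEM is taken as vemurafenib, the drug in the series title, an inhibitor of the RAF family of protein kinases. The untreated cells received no agent according to their labels. The other 3 libraries came from cells given BOR, an agent that the labels do not spell out, in 2 libraries, or VEM together with BOR, in 1 library. The sources used here state neither the dose, nor the treatment time, nor whether the line is 1 clone. Of 24633 genes in the deposited table of this comparison, the 15689 with a mean normalised value of at least 10 over the 3 libraries were tested. Just inside this minimum was ROPN1L with a mean of 10.017, and just outside it LRRIQ4 with a mean of 9.994.

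As background, RAF kinases pass the signal of RAS to MEK and ERK, which drive immediate early genes such as EGR1 and are held back by their own feedback genes. Inhibitors of BRAF can also activate this chain in cells whose BRAF is not mutated, because a drug-bound RAF protein can switch on its partner. Several kinase inhibitors are also known to engage the kinases that phosphorylate the translation factor eIF2alpha, after which the transcription factor ATF4 is made and induces genes of amino acid supply. The series title further names senescence, a lasting arrest with its own secreted proteins and nuclear changes, and the Hippo pathway, in which STK3, STK4, LATS1 and LATS2 restrain the coactivators YAP1 and WWTR1. The comparison therefore addresses which of these programmes differed in RNA between VEM and untreated cells.

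All 8 markers of the labelled myeloid leukaemia type were present, with a summed value of 24500 in VEM against 39400 and 35000 in the untreated libraries. MPO, which is also described with the granule genes below, made most of that gap, and without it the other seven markers summed to 17400 against 19400 and 18300. Of the T cell markers 1 of 6 was in the table, TRAC, at 14.9 in VEM against 4.77 and 5.32, and the other five (CD3D, CD3E, CD3G, CD2 and CD8A) were not. Summed erythroid markers reached 488 against 301 and 269, nearly all of it the delta globin gene HBD, while HBB was not in the table. B cell markers summed to 205 against 275 and 123, megakaryocyte markers to 173 against 197 and 90.5, epithelial markers to 13.9 against 13.3 and 9.58, and fibroblast markers to 58.5 against 159 and 37.3. Their part in the results was not tested. Reads in the table came to 17252404 for VEM and to 17370870 and 18031273 for untreated 1 and 2. The untreated libraries differed widely from each other: the SD over genes of their log2 difference was 0.699, against 0.494 between VEM and untreated 1 and 0.719 between VEM and untreated 2. VEM thus lay nearer to untreated 1 than the untreated libraries lay to each other, and every result below is read against that spread.

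In the VEM library the RNA of 6 genes rose and that of 1 fell, and the 6 included genes of amino acid stress, growth restraint and inflammation. The genes that rose were INHBE, DDIT4, CHAC1, EGR1, PADI4 and CCL5, and the gene that fell was UCA1. These are 0.0446% of the genes tested, 0.0382% higher and 0.00637% lower, at a limma adjusted p under 0.05. A further count, genes with an unadjusted p under 0.05, gave 399. Differences are VEM minus the untreated mean on log2(value + 1), and values, reads divided by a library factor, are given for VEM against untreated 1 and untreated 2, in that order. The test rests on 1 VEM library, which is assumed to vary as the untreated pair does, and nothing says that the libraries came from separate cultures, so p-values measure only a spread that may be technical. The 7 genes also passed with columns scaled to equal totals, where 40 genes did, but no gene passed when low genes were kept, when the variance trend was dropped or when all 6 libraries entered the fit. Tests on whole reads recovered from the values called more genes, 41 with edgeR (37 higher, 4 lower, 0.261% of the genes tested) and 16 with DESeq2 (13 higher, 3 lower, 0.102%), the 7 genes among them in both. The edgeR fit took the spread of each gene wholly from the trend over all genes. An edgeR pass therefore does not weigh how far apart that gene's own untreated values lie, here or below. Unless another tool is named, a gene that passed is one that passed limma.

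INHBE, which encodes the activin E subunit, a secreted hormone known for induction by stress in liver, stood at 488.4 in VEM against 17.16 and 17.03 in the untreated libraries. The log2 difference was 4.76 (SE 0.654, limma adjusted p = 0.00518), the widest among the genes that passed. Its untreated values nearly coincide. DDIT4, an inhibitor of the growth kinase complex mTORC1, was read at 1889 against 206.9 and 160.7, a difference of 3.37 (SE 0.415, limma adjusted p = 0.00209). CHAC1, an enzyme that degrades glutathione, was at 930.3 against 108.7 and 103.3, a difference of 3.12 (SE 0.461, limma adjusted p = 0.00707). For all 3 of these genes the distance from VEM to the nearer untreated library exceeded 3 log2 units, and VEM did not overlap the untreated values. Bulk RNA does not tell more RNA per cell from more cells that make it, here or in any result below.

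EGR1, a zinc finger factor induced within minutes by ERK signalling, was at 1310 in VEM against 219.3 and 117.1, a difference of 3.02 (SE 0.461, limma adjusted p = 0.00718). PADI4, the enzyme that converts arginine to citrulline in histones of neutrophils, reached 1528 against 268.9 and 95.81, a difference of 3.24 (SE 0.513, limma adjusted p = 0.0101). Its untreated values lay further apart than those of the stress genes, yet both were far below VEM. CCL5, a chemokine that draws T cells and monocytes, was at 9112 against 1896 and 984.7, a difference of 2.74 (SE 0.415, limma adjusted p = 0.00718). UCA1, a long non-coding RNA first described in bladder cancer, went the other way, at 152.6 against 1462 and 886.7, a difference of -2.89 (SE 0.411, limma adjusted p = 0.00546). Its gene lies on chromosome 19 at 15828206 to 15836326, plus strand, and its annotation is lincRNA. Coordinates are those of the table, which equal GENCODE release 29 on GRCh38. The plot of difference by level places these 7 apart from the cloud of other genes at the same abundance.

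**Figure D1:**
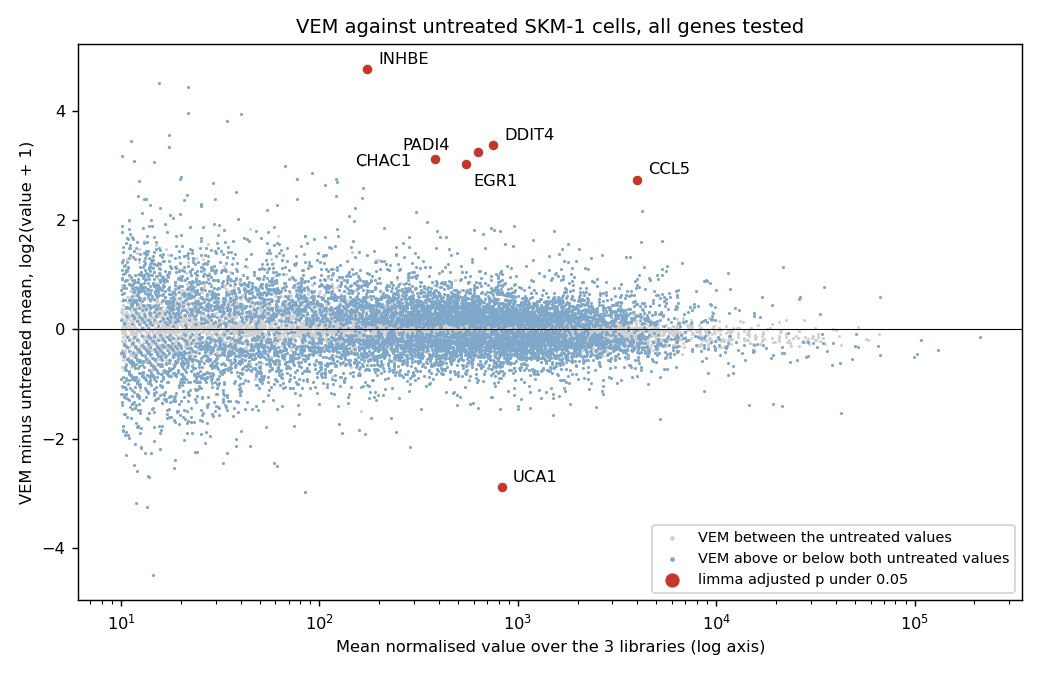
Each point is 1 of the 15689 genes tested, by its mean normalised value over the 3 libraries (x, log axis) and the VEM minus untreated mean difference on log2(value + 1) (y). Red points are the 7 genes with a limma adjusted p under 0.05: 6 lie at 2.74 or above and UCA1 lies at -2.89. Blue points have VEM above or below both untreated values and grey points have VEM between them.

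A wider view comes from asking where VEM lay relative to both untreated values. Over all genes tested, 30.3% were above both and 27.6% below both, and only 1.08% and 1.18% were more than 1 log2 unit beyond the nearer untreated value, 170 and 185 genes. A member above or below both in the groups below is read against those shares. The median difference over all genes was 0.002. Members that did not pass the limma test are given by their values, and no group is called changed from a count. The lists were chosen with earlier results of these data known, so the share of a list describes these data and is not separate support.

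Genes of the ATF4 response lay mostly above both untreated values. Of 20 measured members, 16 were above both, which is 80.0% beside 30.3% of all genes, and 2 were below both, 9 were more than 1 log2 unit above, the median difference was 1.11, and 3 passed the test. ATF4 itself, the factor whose translation the pathway controls, was at 17225 in VEM against 7019 and 10165. ADM2, a peptide hormone, was at 1408 against 413.8 and 363, and SESN2, which restrains mTORC1 when leucine is short, at 1188 against 494.9 and 363. STC2, a secreted glycoprotein of the stress response, read 3181 against 916.3 and 1260, and ATF3, a repressor induced by ATF4, read 155.5 against 43.86 and 60.68. None of these 5 passed the test, with limma adjusted p between 0.207 and 1, although VEM was outside the untreated range in each. On whole reads edgeR called 7 members of this list, ADM2 (edgeR adjusted p = 0.00166), STC2 (0.0141) and SESN2 (0.0482) among them, and DESeq2 called 4, of which ADM2 was 1.

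Amino acid supply pointed the same way in value. Among enzymes of amino acid and one-carbon synthesis, 11 of 16 were above both and 0 below, with a median of 0.53. ASNS, which makes asparagine, was at 374.5 against 67.7 and 55.35, a difference of 2.59 (SE 0.544, limma adjusted p = 0.208), and did not pass, though it did at equal totals (limma adjusted p = 0.0281) with TMM factors (0.0409) and on whole reads (edgeR adjusted p = 0.00166, DESeq2 adjusted p = 0.0136). The serine pathway enzymes PSAT1 and PHGDH were at 7554 against 2315 and 2687 and at 8873 against 4238 and 3765. MTHFD2, the mitochondrial folate enzyme, was at 8565 against 3802 and 4413. Of the amino acid transporters, 8 of 10 were above both and 0 below, with a median of 0.74. The cystine carrier SLC7A11 was at 1436 against 298.5 and 552.5, and SLC7A5, the large neutral amino acid carrier, at 33583 against 11785 and 19555. Both groups had no member past the limma test, while on whole reads edgeR and DESeq2 each called ASNS and PSAT1, and edgeR alone SLC7A11.

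The cytosolic aminoacyl-tRNA synthetases, which charge tRNAs with amino acids, lay on both sides by value. VEM was above both for 6 of 20 and below both for 6, shares near the 30.3% and 27.6% of all genes, with a median of -0.02 that was 0.21 against untreated 1 alone and -0.23 against untreated 2 alone. WARS (2298 against 942.1 and 1368), CARS (2179 against 1008 and 1273), MARS (5809 against 2720 and 3479) and AARS (12445 against 7129 and 6414) were above, while RARS (1237 against 1596 and 2677) and FARSB (1803 against 2060 and 3852) were below.

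ATF4 is known to bind, with a C/EBP partner, a composite element written TGATGNAA. Promoters are those of RefSeq on GRCh38.p14, 250 bases before to 50 after each gene's start, 300 bases in all, searched on both strands. The element was in 3.62% of all promoters and in those of 4.46% of genes. The cAMP response element, also searched, was in 1.85% of all promoters and in those of 2.25% of genes, in 1 of 18 ATF4 regulators with a promoter in the table and in 0 members of the other 3 amino acid lists. TGATGNAA was in 4 of these 18, 4 of 11 synthesis enzymes, 5 of 9 transporters and 7 of 16 tRNA synthetases, and in 0 of 31 mitosis genes. Of the 7 synthetases that hold it, AARS, CARS, GARS and MARS were above both untreated values and IARS, NARS and TARS between them. Of the synthetases without it, SARS and WARS were also above both. None of the 5 synthetases below both that have a promoter (EPRS, FARSA, FARSB, QARS and RARS) holds it. Among the regulators, synthesis enzymes and transporters, the genes that hold it were above both, except BCAT1 and MTHFD1L, which lay between. Many genes without it were above both as well, among them DDIT4, ADM2, PSAT1, PHGDH, MTHFD2 and SLC7A5. Those members beyond the 6 widest in each list are named because of this element, after their values were seen. A match describes letters in the window and is not evidence of binding.

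The promoters of 3 genes with the element are shown because they span the 3 roles, the called stress gene CHAC1 (chr15:40953221-40953520, plus strand), the asparagine enzyme ASNS (chr7:97872359-97872658, minus strand) and the alanyl-tRNA synthetase AARS1 (chr16:70289457-70289756, minus strand), the current symbol of AARS. Each runs 5′ to 3′ along its gene, and capitals mark the element.
CHAC1: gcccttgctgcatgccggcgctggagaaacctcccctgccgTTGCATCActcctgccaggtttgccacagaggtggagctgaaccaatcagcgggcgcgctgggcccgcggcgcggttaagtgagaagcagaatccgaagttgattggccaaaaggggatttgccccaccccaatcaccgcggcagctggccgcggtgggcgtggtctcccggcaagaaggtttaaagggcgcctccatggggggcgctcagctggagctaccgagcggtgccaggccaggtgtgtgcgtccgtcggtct
ASNS: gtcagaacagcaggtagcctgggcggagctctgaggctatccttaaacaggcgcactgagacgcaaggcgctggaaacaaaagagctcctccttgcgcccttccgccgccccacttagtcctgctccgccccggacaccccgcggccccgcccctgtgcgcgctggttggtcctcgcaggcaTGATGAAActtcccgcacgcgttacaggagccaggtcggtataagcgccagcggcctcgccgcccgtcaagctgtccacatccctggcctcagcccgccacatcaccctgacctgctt
AARS1: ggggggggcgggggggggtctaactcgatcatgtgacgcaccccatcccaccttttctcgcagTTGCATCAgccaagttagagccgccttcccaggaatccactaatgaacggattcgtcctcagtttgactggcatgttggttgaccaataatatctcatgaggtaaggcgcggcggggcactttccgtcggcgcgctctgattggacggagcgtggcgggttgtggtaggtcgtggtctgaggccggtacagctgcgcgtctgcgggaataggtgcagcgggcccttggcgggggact
In CHAC1 and AARS1 the element reads TTGCATCA, and in ASNS it reads TGATGAAA. It begins at -209, -187 and -68 bases from the RefSeq start in CHAC1, AARS1 and ASNS.

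Other stress programmes did not share the direction of the ATF4 genes. Of 20 genes of the endoplasmic reticulum unfolded protein response, 7 were above both and 5 below, with a median of 0.004 that was -0.19 against untreated 2 alone. Its main chaperone HSPA5 was at 21721 against 25923 and 37128, and HSP90B1 at 7524 against 11699 and 15364, both lower in VEM. The sensor ERN1 and its target XBP1 were above, at 307.1 against 232.7 and 165 and at 4194 against 2320 and 3351. Cytosolic heat shock genes were below both for 8 of 14 and above both for 2. Their median of -0.265 was -0.04 against untreated 1 alone and -0.555 against untreated 2 alone. HSP90AA1, the inducible HSP90, was the lowest, at 9269 against 21224 and 27266, a difference of -1.38. NRF2 antioxidant genes were above both for 4 of 14 and below both for 4, and their median was 0.056 against untreated 1 alone and -0.299 against untreated 2 alone.

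Selected members of the stress and growth groups can be followed by library in the plot of group members.

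**Figure D2:**
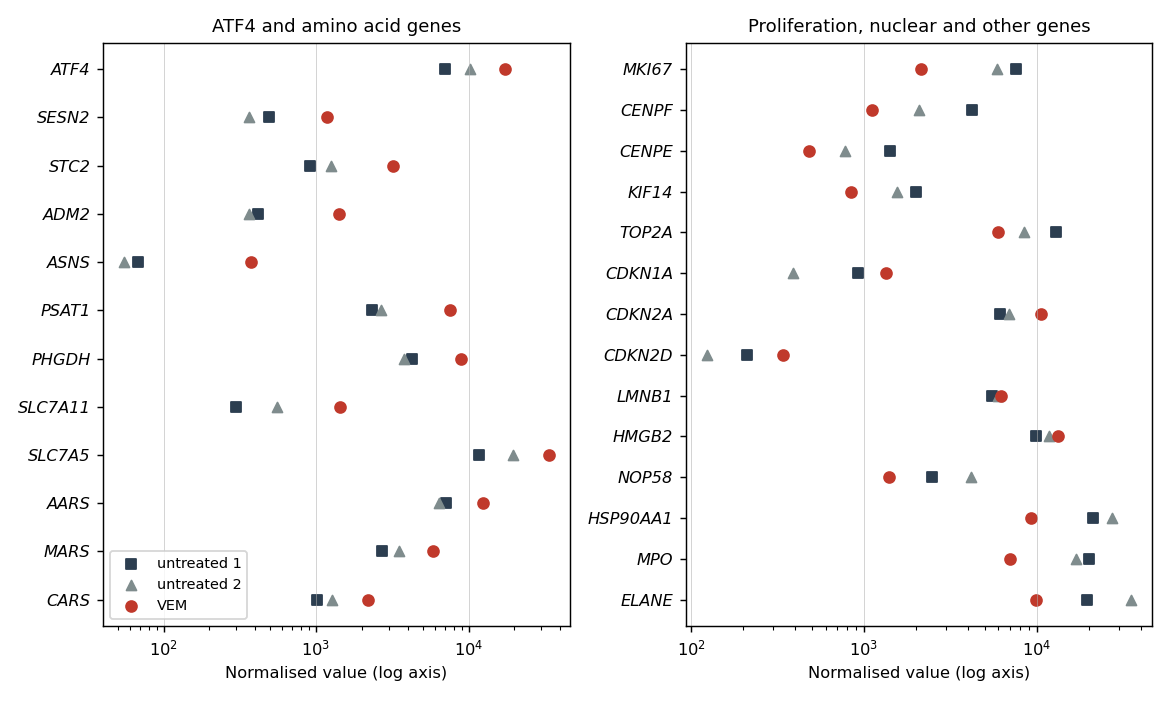
Normalised value (x, log axis) of each gene in VEM (red circle), untreated 1 (dark square) and untreated 2 (grey triangle), 1 point per library. In the left panel VEM lies to the right of both untreated libraries for each of the ATF4 and amino acid genes drawn, and in the right panel it lies to the left for the mitosis genes from MKI67 to TOP2A. Apart from ATF4 and MKI67, these genes were named by a rule that asks for VEM outside both untreated values. RARS and FARSB, below both, and the mitosis genes CDK1 and AURKB, above both, are not drawn.

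Genes downstream of ERK did not lie on the low side in the VEM library. The kinases themselves differed little: of 13 members of the RAS, RAF, MEK and ERK list 6 were above both and 2 below, with a median of 0.03. BRAF, the nominal target of vemurafenib, was at 321 against 327.1 and 313, within the untreated range. ARAF was at 2753 against 2920 and 3893, and MAP2K1, which encodes MEK1, at 1700 against 1300 and 1174. ERK feedback genes were above both for 13 of 18 and below both for 1, with a median of 0.42, and EGR1 alone passed the test. DUSP6, the ERK phosphatase, was at 35.67 against 8.582 and 20.23. ETV5, an ETS factor induced by ERK, was at 2333 against 1621 and 1289, and SPRY1, an inhibitor of receptor signalling, at 571.7 against 361.4 and 404.5.

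Immediate early genes were above both for 15 of 22 and below both for 2, with a median of 0.35. EGR1 stands in this list as well as among the ERK feedback genes, and it was the only member that passed here too. EGR2 was at 50.53 against 20.98 and 4.258, JUND at 2949 against 1322 and 1386, FOSB at 64.4 against 34.33 and 30.87, and NR4A1 at 392.3 against 259.4 and 210.8. Below both were KLF4, a factor of monocyte differentiation, at 33.69 against 41 and 57.48, and KLF6, named here only to complete that count. The CArG box, the site bound by serum response factor, was in 1.29% of all promoters, in those of 1.6% of genes and in 3 of 18 genes of this list, namely EGR1, EGR2 and, named for the element alone, SRF. EGR1 (chr5:138465229-138465528, plus strand) holds 2 matches and is shown because it passed the test. Capitals mark the CArG boxes, which begin at -105 and -83 bases from the RefSeq start.
EGR1: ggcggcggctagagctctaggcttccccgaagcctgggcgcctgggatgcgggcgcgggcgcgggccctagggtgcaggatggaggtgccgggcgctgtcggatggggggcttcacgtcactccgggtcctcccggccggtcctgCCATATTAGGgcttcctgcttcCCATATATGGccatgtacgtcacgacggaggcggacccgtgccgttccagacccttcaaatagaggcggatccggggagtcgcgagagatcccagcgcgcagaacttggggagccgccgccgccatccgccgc

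Chemokine RNAs were above both untreated values in nearly every member. This was so for 10 of 11, with 0 below, a median of 1.04, and 4 of them more than 1 log2 unit above. Besides CCL5, CXCL8, which draws neutrophils, was at 8343 against 1020 and 3383, and CCL3 at 623.2 against 188.8 and 104.3. Both passed edgeR on whole reads (edgeR adjusted p = 0.00239 and 0.00273) but not DESeq2 (DESeq2 adjusted p = 1 and 0.0843). CCL2, which draws monocytes, was at 484.5 against 77.24 and 287.4. CCL3L1, at 408.2 against 163.1 and 155.4, has near-identical copies and its reads are uncertain. NF-kB feedback genes were above both for 11 of 17 and below both for 1. TNF was at 30.71 against 4.768 and 6.387, BCL2A1, a survival protein, at 297.2 against 93.44 and 59.61, and TNFAIP3, which shuts the pathway off, at 449.8 against 290.8 and 289.5.

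The NF-kB motif, searched by its kappa B consensus and 1 variant of it on both strands, was in 0.336% of all promoters, in those of 0.407% of genes, in 6 of 15 NF-kB feedback genes and in 2 of 5 chemokines with a promoter in the table. Of the genes given above, TNFAIP3 holds it, while TNF, BCL2A1, CCL3 and CXCL8 do not. Interleukins and secreted senescence factors were above both for 10 of 16 and below both for 2, with a median of 0.17. PTGS2, the inducible cyclooxygenase, was at 319 against 64.84 and 70.26, and VEGFA, the endothelial growth factor, at 3018 against 1630 and 1676. IL1B was low in each library, at 16.84 against 14.3 and 2.129. IGFBP4 was below, at 4360 against 9105 and 5452. Interferon-stimulated genes had no common direction: 7 of 20 were above both and 3 below, and their median of 0.18 was -0.17 against untreated 1 alone. MX1 was at 32.7 against 79.14 and 45.77, and IFI44L at 45.58 against 20.98 and 9.581. MHC class I genes were above both for 5 of 13 and below both for 1, with a median of 0.005. The share above was 38.5% beside 30.3% of all genes. HLA-E, the member with the widest difference, was at 11367 against 9215 and 7587.

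Mitosis genes were lower in VEM by value, MKI67 with the widest difference. Of 36 members, 23 were below both and 2 above, with a median of -0.19 and no member past the test. MKI67, the proliferation antigen, was at 2126 against 7592 and 5873, a difference of -1.65 (SE 0.401, limma adjusted p = 0.336). At equal totals its difference was a little smaller, -1.59, but passed (limma adjusted p = 0.00159). On whole reads MKI67 passed DESeq2 (DESeq2 adjusted p = 0.0147) and not edgeR (edgeR adjusted p = 0.0935), and no other member passed either. CENPF and CENPE, which act at kinetochores, were at 1108 against 4221 and 2087 and at 478.5 against 1419 and 779.2. KIF14, a motor of cytokinesis, was at 841.2 against 2014 and 1555, and TOP2A, which untangles DNA, at 5962 against 12962 and 8388. The size differed within the group: only MKI67 was more than 1 log2 unit beyond the nearer untreated library, while the 2 genes above both were CDK1, the kinase that starts mitosis, at 4405 against 2718 and 2534, and AURKB, at 1504 against 1322 and 1319. Both are named after their values were seen.

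Replication genes were below both for 15 of 37 and above both for 5, with a median of -0.11 that was 0.07 against untreated 1 alone. MCM10, which starts replication forks, was at 667.8 against 1008 and 1193, and POLA1, the primase polymerase, at 456.7 against 708.5 and 717.5. CCNE2, a cyclin of the G1 to S step, was above, at 341.8 against 256.5 and 151.2. Of the cyclin-dependent kinase inhibitors and RB family, 9 of 15 were above both and 2 below, with a median of 0.25. That median was 0.114 against untreated 1 alone and 0.379 against untreated 2 alone. CDKN1A, which encodes p21, was at 1336 against 926.8 and 386.4. CDKN2A, the locus of p16 and p14ARF, was at 10607 against 6150 and 6901. CDKN2C was at 655.9 against 421.5 and 308.7, and CDKN2D at 341.8 against 210.7 and 123.5. CDKN1B, which encodes p27, was at 629.1 against 511.1 and 625.9, barely above. RBL1, which encodes p107, was below, at 284.3 against 455.8 and 502.4.

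The nuclear markers of senescence did not have the pattern usually described for it. LMNB1, the lamin lost in senescent cells, was at 6241 in VEM against 5477 and 5984, and HMGB2, a chromatin protein also lost, at 13217 against 9899 and 11757. Both were above the untreated values, but LMNB1 by only 0.061 and HMGB2 by only 0.169 log2 units over the nearer one. These distances are small beside the SD of 0.699 between the untreated libraries over all genes tested. No member of the list passed limma, edgeR or DESeq2. LMNA was below, at 4014 against 5693 and 5406. Over the 14 members, 3 were above both and 2 below, near or under the shares of all genes, and the median of -0.08 was 0.11 against untreated 1 alone. Among p53 targets, 9 of 21 were above both and 2 below. GADD45A, a growth arrest gene, was at 2893 against 1396 and 1088, and BBC3, which encodes PUMA, at 192.2 against 103.9 and 92.61. In the BCL2 family, 8 of 15 were above both and 1 below. PMAIP1, which encodes NOXA, was at 1260 against 598.8 and 648.3, and its partner MCL1 at 13224 against 6866 and 7833.

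Hippo genes, named in the series title, differed from untreated cells by small amounts in most members. Of 29 members of the kinase cassette and its regulators, 17 were above both and 5 below, 58.6% and 17.2% beside 30.3% and 27.6% of all genes, with a median of 0.22, and none passed limma, edgeR or DESeq2. That median was 0.087 against untreated 1 alone and 0.288 against untreated 2 alone. STK3, the MST2 kinase, was at 577.6 against 397.6 and 353.4. STK4, the MST1 kinase, was at 2839 against 2777 and 2444. LATS2 was at 282.4 against 221.2 and 166.1. The widest difference was downward: FAT1, an atypical cadherin upstream of the cassette, was at 846.1 against 2228 and 1744, a difference of -1.22. YAP1 was at 224.9 against 218.4 and 99, so it exceeded untreated 1 by little, and TEAD4, its DNA-binding partner, was at 678.7 against 574 and 844.1. WWTR1, which encodes TAZ, was under the minimum, at 1.982 against 1.907 and 5.323.

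YAP-TEAD target genes were above both for 7 of 14 and below both for 2, with a median of 0.36 that was 0.11 against untreated 1 alone and 0.56 against untreated 2 alone. AJUBA, also a regulator of LATS, was at 527.1 against 397.6 and 316.2, and CRIM1, which binds bone morphogenetic proteins, at 1308 against 981.2 and 887.8. FJX1, the four-jointed homologue, was below, at 430 against 514.9 and 685.5. GADD45A, LATS2 and AJUBA each stand in this list and in one described above, so the groups are not separate evidence. Other lists share members too, among them EGR1, SLC7A11 and SESN2. The TEAD element GGAATG was in 14.0% of all promoters, in those of 16.7% of genes and in those of 6 of 8 targets with a promoter in the table.

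Medians of nucleolar and ribosomal protein genes were below 0 against untreated 2 and near 0 against untreated 1. Of 26 genes of MYC and ribosome biogenesis, 13 were below both and 2 above, and the median of -0.43 was -0.005 against untreated 1 and -0.78 against untreated 2. NOP58, a box C/D nucleolar protein, was at 1405 against 2471 and 4139, and NCL, which encodes nucleolin, at 18544 against 20086 and 37677. MYC was at 8334 against 7596 and 11633, between them. Ribosomal proteins were between the untreated values for 60 of 78, below both for 18 and above both for 0, and their median of -0.21 was 0.05 against untreated 1. RPL14 was at 15011 against 16130 and 27177. The mitochondrially encoded respiratory chain was below both for 11 of 13 and above both for 0, with a median of -0.40. MT-ND5, a subunit of complex I, was at 30816 against 44506 and 50852. Mitochondrial genes took 4.44% of the values in VEM and 5.398% and 5.261% in the untreated libraries, and the part of this share in the result was not tested.

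Cholesterol genes were above both for 15 of 20 and below both for 1, with a median of 0.40 that was 0.222 against untreated 1 alone and 0.625 against untreated 2 alone. INSIG1, which holds the sterol sensor in the endoplasmic reticulum, was at 2776 against 1593 and 633.4, and DHCR7, the last enzyme of one route to cholesterol, at 3337 against 2658 and 1753. Glycolysis and hypoxia genes had 7 of 23 above both and 6 below, close to the shares of all genes. Even so SLC2A3, a glucose transporter, was at 772.8 against 288 and 317.2, while LDHA was at 16979 against 17502 and 29755. Lysosome and autophagy genes were above both for 11 of 25 and below both for 4, with ATG7 at 2825 against 1762 and 1572. Target genes of the aryl hydrocarbon receptor, a sensor of planar aromatic compounds, lay on the low side: 4 of 8 were below both and 0 above. CYP1A1 was at 58.45 against 196.4 and 253.4, CYP1B1 at 753 against 1438 and 1952, and the repressor AHRR at 485.5 against 913.5 and 983.6.

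Among myeloid genes, those of the early granules lay mostly on the low side and those of later stages on both sides. Azurophil granule genes, made by promyelocytes, were below both for 6 of 11 and above both for 2, with a median of -0.47. PRTN3, proteinase 3, was at 18830 against 50680 and 58215. ELANE, neutrophil elastase, was at 9891 against 19613 and 35162, and MPO, myeloperoxidase, at 7041 against 20082 and 16766. None passed the test, with limma adjusted p = 1 for PRTN3. At equal totals all 3 passed, with limma adjusted p = 0.0102 for PRTN3, 0.0204 for ELANE and 0.0222 for MPO. Their differences were a little smaller there, at -1.467, -1.348 and -1.321, against -1.528, -1.409 and -1.382 in the main fit. On whole reads PRTN3 passed DESeq2 (DESeq2 adjusted p = 0.0177) but not edgeR (edgeR adjusted p = 0.9), and no other member passed either. Late granule and defence genes were above both for 11 of 21 and below both for 7, with a median of 0.53. Besides PADI4, ITGAM, the CD11b integrin, was at 1212 against 550.2 and 238.4, and FGR, a myeloid kinase, at 678.7 against 249.8 and 120.3. CSF1R, the receptor of macrophage colony-stimulating factor, was far below, at 12.88 against 119.2 and 51.1.

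Lineage transcription factors lay on both sides by value, 7 of 15 above both and 5 below. CEBPA, which starts granulocyte differentiation, was at 1346 against 2014 and 3118, and MYB, a progenitor factor, was also below. GATA2 was at 4689 against 2511 and 2767, and CEBPB at 2017 against 1199 and 1352. Of stem and progenitor genes, 8 of 13 were above both and 3 below. CD38, a surface enzyme, was at 293.3 against 164 and 119.2, and HOXA9, a homeobox factor, at 1744 against 1246 and 1633. The plot of all 38 lists sets these counts beside the shares of all genes and beside the medians against each untreated library.

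**Figure D3:**
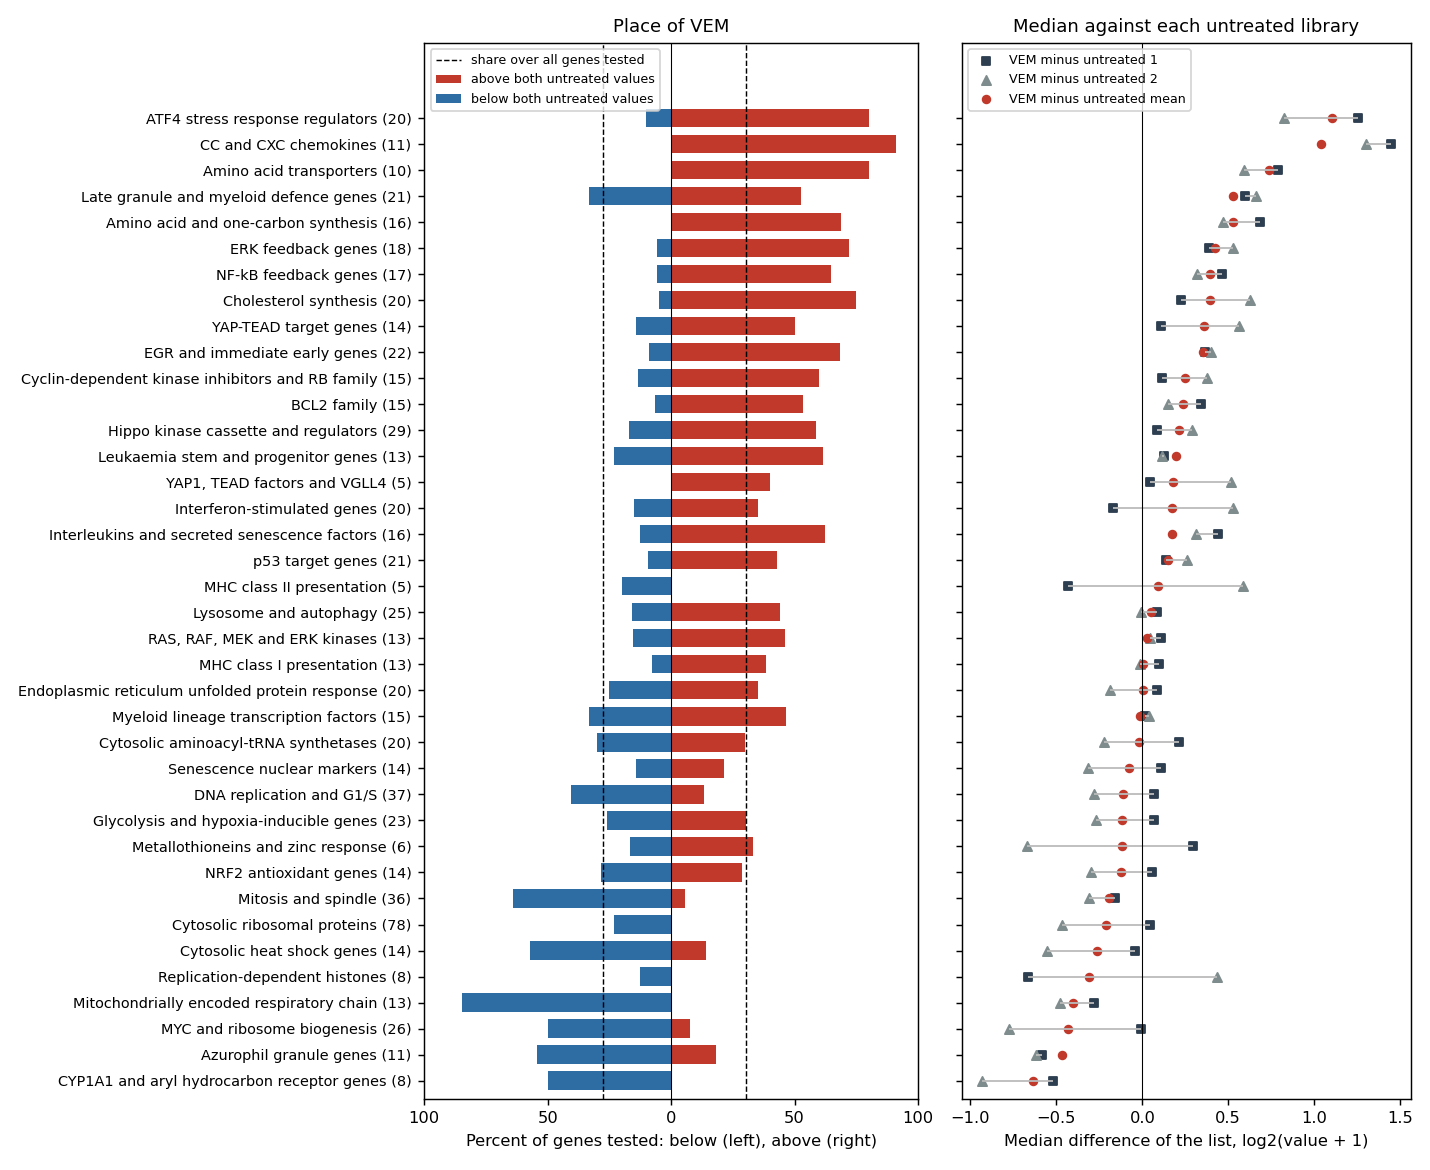
Left, the percent of tested members of each list with VEM above both (red, right) or below both (blue, left) untreated values, with the shares over all genes, 30.3 and 27.6, as dashed lines and the number tested in brackets. Right, the median log2(value + 1) difference of each list from untreated 1 (square), untreated 2 (triangle) and their mean (red circle). Chemokines and ATF4 regulators stand highest against both untreated libraries, while ribosomal proteins cross 0 between them.

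The widest gaps were chosen as the 10 protein-coding genes in each direction with the largest distance to the nearer untreated value, at a mean of at least 100. Higher in VEM, beyond the 6 that also passed the test and ASNS, OLFM4, a granule protein of a neutrophil subset, was at 282.4 against 40.05 and 42.58. LOXHD1, a gene known from hearing, was at 355.7 against 73.42 and 59.61. SERF1B was at 243.7 against 45.77 and 31.94, but it has a near-identical copy, SERF1A, so its reads are uncertain. Lower in VEM, besides CYP1A1, MKI67 and PRTN3, was CFP, properdin of the complement system, at 43.59 against 221.2 and 124.5. ZNF385A, a p53 cofactor, was at 95.11 against 306.1 and 283.2, CCDC150 at 48.55 against 163.1 and 165, and VIT at 77.28 against 208.8 and 573.8. RANBP2, a nuclear pore protein, was at 890.7 against 2401 and 2189, NSRP1, a splicing regulator, at 147.6 against 365.2 and 460.9, and CYP4F3, which inactivates leukotriene B4, at 455.8 against 1118 and 1421. In the plot of the widest gaps, the untreated libraries lie close together for CCDC150 and ZNF385A and far apart for VIT.

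**Figure D4:**
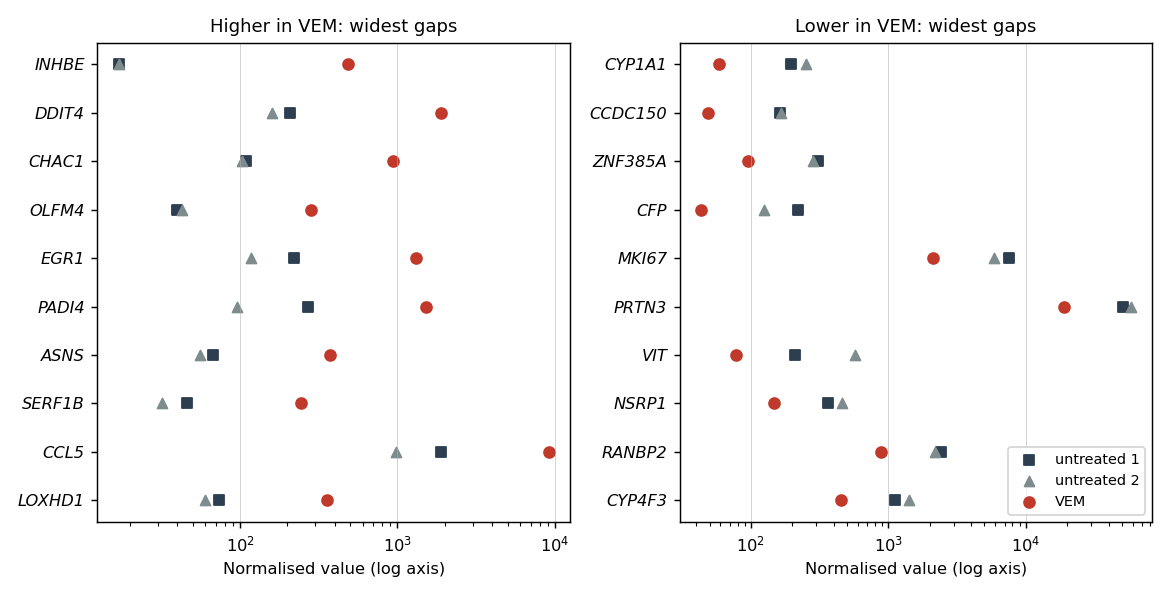
Normalised value (x, log axis) in VEM (red circle), untreated 1 (dark square) and untreated 2 (grey triangle) for the 10 protein-coding genes with the widest gap in each direction, 1 point per library. INHBE at the top left stands at 488.4 in VEM against 17.16 and 17.03, and CYP1A1 at the top right at 58.45 against 196.4 and 253.4.

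The same genes can be set beside the other treated libraries, each against the untreated mean of its own table. All of these comparisons share the untreated libraries and the tables were scaled separately, so the values are given side by side with no test. DDIT4 differed by 3.37 in VEM, 2.85 in VEM+BOR, 0.16 in BOR 1 and 7.10 in BOR 2. INHBE differed by 4.76, 4.28, 0.68 and 5.35 in the same order, and CHAC1 by 3.12, 2.64, 0.54 and 4.93. EGR1 differed by 3.02, 2.19, -0.40 and 6.75. The 2 BOR libraries are thus far apart for these genes, with BOR 2 beyond VEM in each of the 4 and BOR 1 under 1. For PADI4 the BOR libraries lay together: it differed by 3.24 in VEM, 4.48 in VEM+BOR, 1.95 in BOR 1 and 1.92 in BOR 2. CCL5 differed by 2.74, 2.26, 0.08 and 1.75 in the same order.

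For PRTN3 and ITGAM the values of VEM and VEM+BOR lay together and apart from both BOR libraries. PRTN3 differed by -1.53 and -1.60 in these, against 0.15 in BOR 1 and 0.13 in BOR 2. ITGAM differed by 1.74 and 1.88, against 0.13 and 0.79. UCA1 differed by -2.89 in VEM, -4.72 in VEM+BOR and -2.01 in BOR 1, but by 0.36 in BOR 2. CFP was lower only in VEM by value, at -1.91 against 0.36, 1.15 and 0.99. MKI67 differed by -1.65, -0.80, -0.57 and -3.08.

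**Figure D5:**
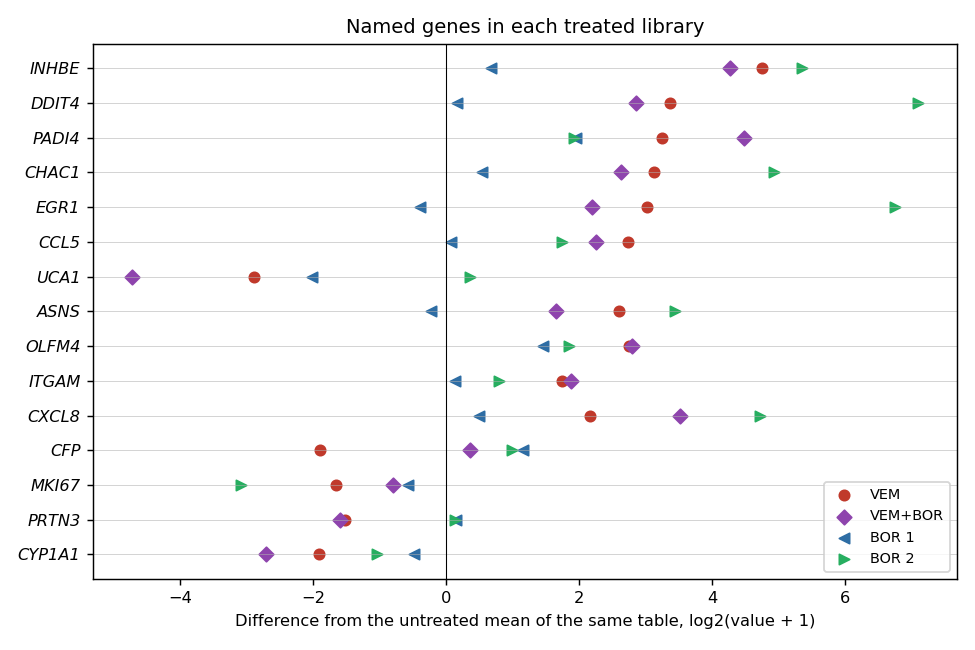
Difference from the untreated mean of the same table on log2(value + 1) (x) for the 7 genes that passed the test in VEM and 8 further named genes (y), 1 point for each of the VEM, VEM+BOR, BOR 1 and BOR 2 libraries. VEM and VEM+BOR lie near each other for PRTN3 (-1.53 and -1.60), and BOR 2 lies far from BOR 1 for DDIT4 (7.10 and 0.16).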

How the data were processed

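RNA of SKM-1 cells was measured in 6 libraries, of which 1 VEM and 2 untreated libraries are compared. Groups follow the treatment in the titles. Poly-T selected mRNA was copied from random hexamers and read in pairs of 150 bases, per the labels' protocols. They name no step that marks strand, so a gene and an antisense or overlapping partner share reads. The tools named in the submitters' processing notes, without their roles, are edgeR 3.22.5, featureCounts 1.5.0-p3, HISAT2 2.0.5, CASAVA and DESeq2 1.20.0. On the genome build the sources used here say nothing. All 24633 gene coordinates equal GENCODE release 29.

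The authors deposited a normalised signal per gene and library. In each column, VEM included, 100.0% of values are whole multiples of its own step within 0.001, that is, reads divided by a library factor, and reads in the table are the sum divided by that step. These reads went into edgeR 4.0.16 (quasi-likelihood) and DESeq2 1.42.0 as an alternative test. In the edgeR fit the prior degrees of freedom were infinite, so a gene's own spread in the untreated pair had no weight beside the trend. The authors also deposited log2 fold changes, p-values and adjusted p-values, used only where their table is named.

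The test was limma (version 3.58.1, under R 4.3.3) with a trend of variance on level and Benjamini-Hochberg adjustment, on log2(value + 1) of the 15689 genes with a mean of at least 10, two-sided. With 1 VEM library the residual spread comes from the untreated pair, with 1 degree of freedom and 18.0 more from the prior, and VEM is assumed to vary like it. The log2(value + 1) scale understates changes of low genes. The untreated libraries differ beyond sampling noise (chi-square per degree of freedom 41.3). The scripts were tested on simulated data.

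Named genes are those past adjusted p 0.05; the 10 protein-coding genes in each direction with the widest gap at a mean of at least 100; up to 6 members of each list outside both untreated values with the largest difference; and a fixed set including BRAF, YAP1, CDKN1A, MKI67, LMNB1 and ATF4. Others are said to be chosen after their values were seen. The members and the 38 lists were chosen with earlier results of these data known. Alternatives changed the test, pseudocount, filter, scaling, trend and libraries. Promoter sequences are from RefSeq, GRCh38.p14. Some genes are not reported here.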

Additional observations from a re-analysis of the deposited data

How the results depend on the processing

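The 7 calls numbered 7 as well at a pseudocount of 0.5 or 5 and at a minimum mean of 50. All 7 remained under other scalings: equal totals gave 40 (32 higher, 8 lower) and TMM factors 11 (10 and 1), while the median of all genes moved to 0.063 and 0.014. No gene passed in limma without the filter (0, with 980 at an unadjusted p under 0.05), without the trend (0, with 429) or with all 6 libraries (0, with 39). Leaving out 1 library from that 6-library fit gave 0 without untreated 1 (27 at an unadjusted p under 0.05), 0 without untreated 2 (7), 16 without BOR 1 and 7 without BOR 2, so the range was 0 to 16. The fits without a BOR library were chosen after seeing the data. In them the untreated pair alone gave the residual spread, with 1 degree of freedom, as in the main fit. They set the same VEM library against the same pair, so they are not a separate check of the 7 calls. The fits without an untreated library took their residual spread from the BOR pair alone. The cause of the differences between these counts was not tested. Among the named genes 17 more passed at equal totals, with PSAT1, SLC7A11, STC2, ADM2, CXCL8, CCL3, ITGAM, FGR, INSIG1, OLFM4, HSP90AA1 and CENPF among them, and 3 with TMM factors (ADM2, ASNS and CXCL8).

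The share of genes above both untreated values was 31.2% without the filter, 33.7% at equal totals and 31.3% with TMM factors. The share of genes below both untreated values was 26.7% without the filter, 25% at equal totals and 26.7% with TMM factors. List medians changed sign for 10 of 38 lists against untreated 1 alone, 5 against untreated 2 alone and 2 at equal totals; those changes above 0.1 in the described lists stand beside their results. Myeloid lineage transcription factors went from -0.013 to 0.048 at equal totals and tRNA synthetases from -0.02 to 0.04. Differences of 3 named genes changed sign against untreated 1 alone, BRAF to -0.03, MYC to 0.13 and TEAD4 to 0.24, and TEAD4 to 0.02 at equal totals.

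On whole reads edgeR called 41 genes (471 at an unadjusted p under 0.05) and DESeq2 16 (315, with no adjusted p given for 1825 genes), 14 of them shared, and all 7 calls remained in both. Among the named genes 16 more passed edgeR and 7 more DESeq2, and BRAF went to -0.006 and -0.001; per-gene values of these tools were added after seeing the data. No paired analysis was possible because the labels give no replicate numbers and VEM has 1 library. Below a mean of about 10 the depth gives little precision.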

Other observations

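By gene class, of 626 lincRNA genes 38.0% were above both and 26.4% below, and of 878 antisense genes 36.1% and 26.5%, against 30% and 27.1% of 12788 protein-coding genes. Their medians of 0.133 and 0.113 were 0.013 and -0.011 against untreated 1 alone. Processed pseudogenes had 20.3% above and 31.5% below. Protein-coding genes more than 1 log2 unit above both (117) had a median normalised value, not scaled by length, of 151, those more than 1 below (107) one of 32.5, and all protein-coding genes one of 571, with median GC contents of 49.6%, 48.2% and 48.7%.

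Lists not described above were small. Of 8 replication-dependent histone genes, which mostly lack poly-A tails, 0 were above both and 1 below, and their median of -0.31 was 0.44 against untreated 2 alone. Of 6 metallothionein and zinc genes 2 were above both and 1 below, MT2A among the former at 21954 against 13016 and 16152, with a median of -0.12 that was 0.30 against untreated 1 alone. Of 5 MHC class II genes 0 were above both and 1, the transactivator CIITA, below, at 18.82 against 25.75 and 24.48, and the median of 0.09 was -0.43 against untreated 1 alone.

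Some surface receptors had wide gaps and are named after their values were seen. C5AR1, the receptor of complement C5a, was at 106 in VEM against 2.861 and 11.71, CLEC5A, a myeloid lectin receptor, at 167.4 against 26.7 and 36.19, and NCR3, a receptor known from natural killer cells, at 157.5 against 10.49 and 34.06. CXCR3, a chemokine receptor, was listed at 0 against 18.12 and 25.55. ADAMDEC1, a secreted protease, was at 13.87 against 91.54 and 148. None passed the limma test or DESeq2, while edgeR on whole reads called C5AR1 (edgeR adjusted p = 0.00239), NCR3 (0.0146) and ADAMDEC1 (0.0421).

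The authors' deposited table lists 13 genes higher and 3 lower at an adjusted p under 0.05, all 7 limma calls among them. Its further genes were CACNA2D1, ASNS, ADM2, OLFM4, PSAT1, LOXHD1 and CD55, higher, and MKI67 and PRTN3, lower. In the authors' deposited table the log2 fold change of MKI67 was -1.66 (adjusted p = 0.0263) and that of ASNS 2.60 (adjusted p = 0.0109).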
